A study of Mus musculus with 10 samples.

Results

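The genes of the cytosolic ribosome's own proteins are described here in cells of the embryonic mouse dorsal brain that had been sorted for NG2 or for GFAP. They were chosen by a rule on their symbols, with earlier results of these data known. The rule took protein-coding rows of the deposited table whose symbol begins with Rpl or Rps and a number, with at most a short suffix. It also took Rpsa, Rplp0, Rplp1 and Rplp2. The rule found 83 genes among 53801 rows, of which 48 encode proteins of the large subunit, 32 of the small subunit and 3 of the stalk. They lie on 19 chromosomes, with 4 on the X. By edgeR's default expression filter 80 of the 83 had enough reads to be tested.

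The cytosolic ribosome consists of a small subunit, which reads the messenger RNA, and a large subunit, which joins amino acids and releases the chain through an exit tunnel. Each ribosome carries a fixed set of proteins around its ribosomal RNA, so the genes of these proteins are known for being expressed together and at high level in growing cells such as neural progenitors. Most of their mRNAs begin with a run of pyrimidines, the terminal oligopyrimidine (TOP) motif, through which the growth kinase mTORC1 and the RNA-binding protein Larp1 control their translation.

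All libraries came from wild-type mice. StarTrack, a mixture of reporter plasmids for tracing the descendants of single progenitors, was electroporated in utero at embryonic day 12. At embryonic day 14 the tissue was dissociated mechanically and with the enzyme TrypLE, and NG2+ and GFAP+ cells were isolated by flow cytometry. The 5 GFAP and 5 NG2 libraries, called GFAP 1 to 5 and NG2 1 to 5, carry the same batch number, 1. NG2 is a surface proteoglycan encoded by Cspg4, GFAP is a filament protein of astroglia, and the labels name the cells neural stem cells. The labels do not say whether the replicates are separate litters or animals, so the p-values measure only the spread between these samples.

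The gene totals of the libraries ranged from 12945436 to 17569730 counts. Cspg4 was higher in NG2 libraries (edgeR adjusted p = 0.00256), while Gfap had 16 reads over the 10 libraries and so could not check the GFAP label. Markers of radial glia were found in both groups and had a median log2 fold change of -0.37 (NG2 minus GFAP, 8 of 8 negative, 0 past the threshold). Neuron markers were also found in both, with a median of 0.31 (7 of 7 tested positive, 0 past the threshold), so genes of both cell types were present. Markers of intermediate progenitors had a median of -0.23 (4 of 5 negative, 0 past the threshold). An unadjusted edgeR p under 0.05 was found for 3 radial glia, 4 neuron and 3 intermediate progenitor markers, against 12.8% of all tested genes. NG2 5 stood apart, with reads on 18903 genes against 22988 to 24444 in the other libraries.

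The start of the transcript is what the members are best known to share, so it is shown first for members that carry a clear pyrimidine run. RefSeq gave 75 promoter windows of GRCm38.p6 for 63 of the 83 members. Each line has 10 bases before the annotated start and 20 from it on, 5′ to 3′ on the gene's strand. Capitals mark a run that begins with C, has at least 5 pyrimidines and starts within 10 bases of the annotated start.
Rpl15, chr14:18270967-18270996, minus strand: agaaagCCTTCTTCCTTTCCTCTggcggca
Rpl35, chr2:39005112-39005141, minus strand: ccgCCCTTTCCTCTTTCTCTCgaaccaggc
Rps6, chr4:86857348-86857377, minus strand: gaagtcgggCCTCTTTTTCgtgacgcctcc
Rplp2, chr7:141447641-141447670, plus strand: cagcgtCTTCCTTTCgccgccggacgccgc
Rps10, chr17:27635225-27635254, minus strand: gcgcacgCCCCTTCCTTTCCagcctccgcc
Rps15a, chr7:118116128-118116157, minus strand: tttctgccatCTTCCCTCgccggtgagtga
Rpl38, chr11:114668570-114668599, plus strand: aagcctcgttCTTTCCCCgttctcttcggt
Rpl28, chr7:4792955-4792984, plus strand: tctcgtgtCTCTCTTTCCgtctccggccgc
Rpl13a, chr7:45128726-45128755, minus strand: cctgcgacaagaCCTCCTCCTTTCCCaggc

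The runs in these windows are 17, 18, 10, 9, 13, 8, 8, 10 and 14 bases long in the order printed. Rps6 among them encodes the small subunit protein that the S6 kinases phosphorylate, and Rplp2 encodes a stalk protein. Such a run was found in 38 of the 75 member windows (50.7%) and in 27.9% of all 32851 RefSeq promoter windows. An annotated start can lie some bases away from the true cap site, so a window without a run does not show that the mRNA lacks one. The following members, 3 with high levels per length together with the paralogue Rpl7l1, had no such run in the searched stretch.
Rpl4, chr9:64173377-64173406, plus strand: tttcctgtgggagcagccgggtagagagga
Rps3a1, chr3:86142649-86142678, minus strand: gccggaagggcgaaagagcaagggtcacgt
Rplp0, chr5:115559457-115559486, plus strand: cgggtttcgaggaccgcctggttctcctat
Rpl7l1, chr17:46782637-46782666, minus strand: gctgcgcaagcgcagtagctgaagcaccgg

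Short motifs were searched on both strands in the whole window, from 250 bases before to 50 after the start, and matches of different motifs may overlap. CCGGAAG, the core letters of Ets family sites, was found in 36.0% of member windows and 8.86% of all windows. CCATNTT, the core of the YY1 motif, was found in 34.7% of member windows against 16.1% of all. GGGCGG, the GC box, was found in 60.0% against 35.7%, and TATAAA in 9.33% against 13.6%. A match describes the letters only and is not shown to be a binding site.

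Most members were abundant in both populations, and their levels differed widely among themselves. FPKM, fragments scaled by gene length and by library depth, allows levels of different genes to be compared per length. The length is that of the deposited table, so rankings per length depend on it. The median member stood at a mean of 78.3 FPKM over the 10 libraries, against 4.82 FPKM for the median of all 16187 tested genes. The middle of the distribution, from the lower to the upper quartile, ran from 44.2 to 153.6 FPKM, and 37 members exceeded 100.

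**Figure D1:**
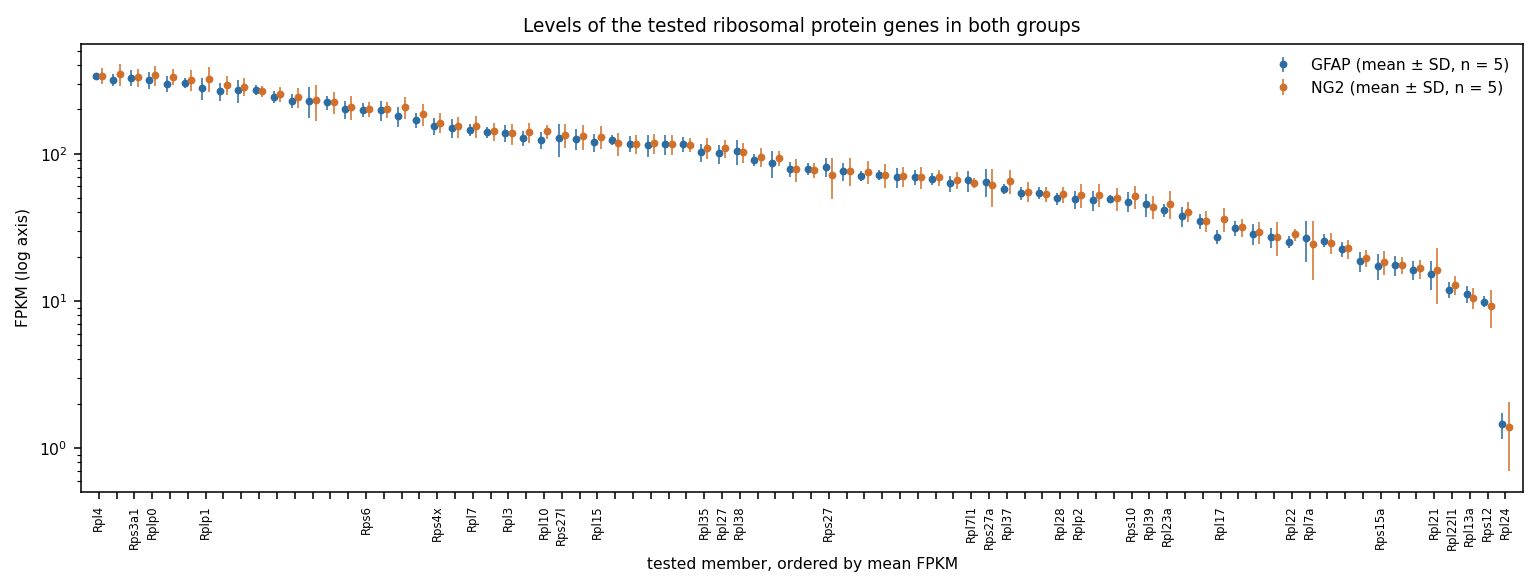
Mean FPKM (log axis) of each of the 80 tested members in the GFAP (blue) and NG2 (orange) libraries, with SD over 5 libraries, ordered by the mean over all 10, with names for members described in the text. The points of both groups nearly coincide along a range from 338.6 FPKM (Rpl4) to 1.42 FPKM (Rpl24).

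Rpl4, which lines the exit tunnel of the large subunit, had the highest mean (ENSMUSG00000032399, chr9:64173375-64178666). It was at 329.9, 366, 339, 329 and 321 FPKM in GFAP 1 to 5 and 318, 290.4, 387, 329 and 376 FPKM in NG2 1 to 5. The GFAP values lay within the NG2 range, with NG2 2 lowest and NG2 3 highest of all 10 libraries (log2 fold change 0.00, SE 0.09, edgeR adjusted p = 0.997).

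Rps3a1 and Rplp0 also stood near the top. Rps3a1 of the small subunit was at 329.6 ± 38.9 FPKM in GFAP and 332 ± 47.3 FPKM in NG2 libraries (SD, n = 5 each). Rplp0, the base of the stalk, was at 316 ± 42.3 FPKM in GFAP and 341 ± 52.2 FPKM in NG2 libraries. The levels of Rpl4, Rps3a1 and Rplp0 did not differ beyond their spread.

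At the lower end stood Rpl24, Rps12 and Rpl13a. Rpl24 (ENSMUSG00000098274, chr16:55966275-55971435), a large subunit protein that forms a bridge to the small subunit, was at 1.74, 1.39, 1.02, 1.41 and 1.69 FPKM in GFAP 1 to 5 and 1.39, 1.53, 2.15, 1.57 and 0.271 FPKM in NG2 1 to 5. Its mean of 1.42 FPKM was lower than that of Rpl4 by a factor of 239, and its value in NG2 5 rested on 5 reads. On the same strand Rpl24 overlaps the row Gm28037, which also carries an L24 description and had 0 reads in all libraries, so the level given for Rpl24 is uncertain.

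Rps12 of the small subunit was at 9.90 ± 0.871 FPKM in GFAP and 9.20 ± 2.61 FPKM in NG2 libraries. Rpl13a of the large subunit, whose start carries a long pyrimidine run printed before, was at 11.1 ± 1.43 FPKM in GFAP and 10.5 ± 1.74 FPKM in NG2 libraries. Most of Rpl13a is overlapped on the same strand by the protein-coding row Gm45713, which had 0 reads. The part of this overlap in the low count was not tested.

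In every sample the stalk genes were abundant, though not to the same extent per length. The stalk is the flexible arm of the large subunit that recruits the elongation factors, with Rplp0 at its base and Rplp1 and Rplp2 as paired acidic proteins on it. Rplp1 had a mean of 302 FPKM and Rplp2 of 50.7 FPKM. Rplp1 exceeded Rplp2 per length in both groups, at 279 ± 45.8 FPKM in GFAP and 325 ± 63.0 FPKM in NG2 libraries against 49.0 ± 6.76 FPKM in GFAP and 52.5 ± 9.90 FPKM in NG2 libraries. The size of this gap depends on the deposited gene length, which is 499 bases for Rplp1 against a median of 1776 for the members.

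Several members have a second gene for a closely related protein, and in each such pair both were described. Rpl22 was at a mean of 26.7 FPKM and its paralogue Rpl22l1 at 12.4. Rpl7 was at 149.5 FPKM and Rpl7l1 at 64.7. Rps27 was the exception, at 76.6 FPKM below its paralogue Rps27l at 131. Rps27l, a gene known to respond to p53, was thus the more abundant row of that pair per length. Reads of Rps27 may not be separable from those of its copy Rps27rt, described below, so this ranking is uncertain. In counts relative to library size (CPM), Rps27 and Rps27rt together were at 114 in GFAP and 115 in NG2 libraries. Rps27l was at 105 CPM in GFAP and 110 CPM in NG2 libraries. The group means for Rps27l were 127 ± 31.9 FPKM in GFAP and 134 ± 24.7 FPKM in NG2 libraries, and for Rps27 they were 81.6 ± 11.5 FPKM in GFAP and 71.7 ± 22.3 FPKM in NG2 libraries, where NG2 1 and NG2 2 stood lower than the other 8 libraries.

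The paralogues known from testis and muscle were at or near 0. Rpl10l, a retrogene of the X-linked Rpl10 used in spermatogenesis, had 0 reads over the 152069880 counts of the 10 libraries, which allows a level of up to 0.0197 CPM (3 counts, for counting error only). Rpl39l, the testis form of Rpl39, had 3 reads, 1 each in NG2 1, NG2 4 and GFAP 5. Rpl3l, the muscle form of Rpl3, had 1 read, in NG2 5. Their partners Rpl10, Rpl39 and Rpl3 had means of 133, 44.5 and 139 FPKM. These 3 untested genes are all the members that the filter removed.

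The main comparison asks whether NG2+ and GFAP+ cells differ in the expression of their ribosomal protein genes. No member passed the threshold of 0.05 on the adjusted p: edgeR called 0 of 80, against 0.148% of all tested genes (24 of 16187, 12 higher and 12 lower in NG2). At an unadjusted p under 0.05 there was 1 member (1.25%), against 12.8% of all tested genes. DESeq2 called 0 of the 79 members for which it gave an adjusted p, against 2.61% of genes, and the authors' deposited table held 0 of 81 members with an adjusted p under 0.05, against 1.16% of its genes. Without NG2 5, which stood apart in genes detected, edgeR again called 0 of 80 members, with 44 positive and a median log2 fold change of 0.02, while 117 genes of the whole table passed. Calls by edgeR were rare in the whole table, so 0 of 80 is near the background share. The fit with voom and sample weights called more genes, 8.90% of those tested (1441 of 16187), and again 0 of 80 members; at an unadjusted p under 0.05 it held 8 members (10.0%), against 27.7% of genes.

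The estimates were small and their intervals narrow. The median log2 fold change of the members was 0.02 (NG2 minus GFAP), against -0.01 over all tested genes, and 78 of 80 members lay within 0.2 of 0 in either direction, as did 54.7% of all tested genes. The 95% interval lay wholly between -0.5 and 0.5 on the log2 scale, a 1.41-fold difference, for 72 of the 80. The other 8 were Rplp1, Rps27, Rps27a, Rpl17, Rpl7a, Rpl21, Rps12 and Rpl24. The median distance from an estimate to the bound of its interval was 0.26, and the median SE was 0.12 for the members and 0.17 for all tested genes. In bulk samples of this kind, fewer cells of a type and less RNA per cell cannot be told apart.

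**Figure D2:**
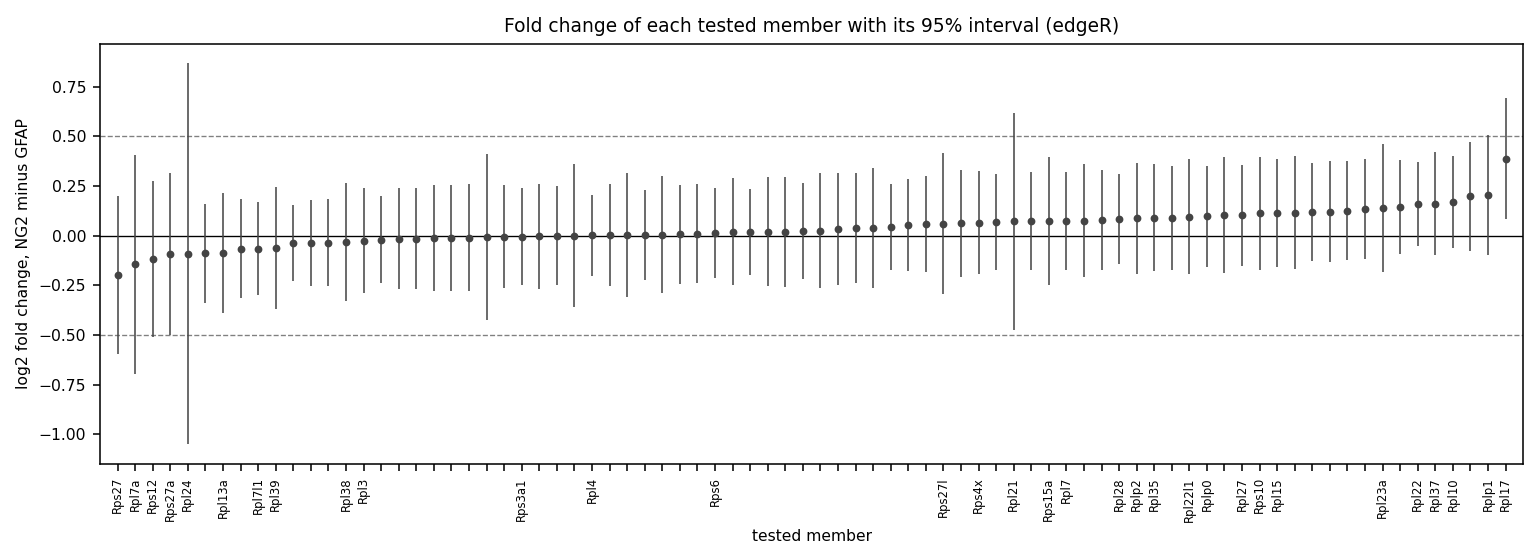
Log2 fold change (NG2 minus GFAP) of each of the 80 tested members from edgeR, with its 95% interval, ordered by size, with names for members described in the text; dashed lines mark -0.5 and 0.5. Rpl17 at the right end is the member whose interval leaves out 0, and the intervals of 72 members lie between the dashed lines.

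The sign of the estimates leaned to NG2, and this lean depended on single libraries and on the scaling. The estimate was positive for 54 of 80 members (67.5%), against 48.5% of all tested genes, and negative for 26. With the library totals alone as the scaling, 35 were positive and the median was -0.02. Without NG2 3 the number was 28 with a median of -0.03, and without NG2 2 it was 73 with a median of 0.10. Leaving out GFAP 1 gave 34 positive (median -0.01) and leaving out GFAP 4 gave 38 (median -0.003).

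The medians of the subunits were close to each other. Of the large subunit genes tested, 27 of 45 were positive with a median of 0.02. In the small subunit 24 of 32 were positive, also with a median of 0.02. All 3 stalk genes were positive, with a median of 0.10, and none passed the threshold.

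Rpl17, whose protein sits at the mouth of the exit tunnel, had the largest estimate and was the member with an unadjusted p under 0.05. It was at 18.6, 23.0, 23.5, 19.6 and 22.7 CPM in GFAP 1 to 5 and 23.6, 31.4, 35.7, 23.6 and 26.2 CPM in NG2 1 to 5 (CPM here are counts relative to library size after TMM scaling). Each NG2 library was above every GFAP library, with the narrowest gap between GFAP 3 and NG2 1 or NG2 4. It was the only tested member whose groups did not overlap (1.25%), against 3.28% of all tested genes, or 1.52% with NG2 above GFAP. The log2 fold change was 0.39 (SE 0.14, 95% interval 0.08 to 0.69, edgeR adjusted p = 0.296). In the authors' deposited table its log2 fold change was 0.40 with an adjusted p of 0.141.

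For Rpl17 most reads of its protein's sequence were counted elsewhere. The table holds 99 pseudogene rows for the same protein, and these carried 14294 reads against 3750 on Rpl17 itself, or 79.2% of the sum. When the pseudogene reads were added to the gene's own, the log2 fold change was 0.12 (edgeR adjusted p = 0.69). The values of Rpl17 are thus uncertain, since its reads may not be separable from those of near-identical copies.

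Large positive estimates after that of Rpl17 included those of Rplp1, Rpl10 and Rpl37. Rplp1 was at 122, 167, 165, 121 and 132 CPM in GFAP 1 to 5 and 131, 133, 202, 159 and 189 CPM in NG2 1 to 5. NG2 3 and NG2 5 were the highest of all and GFAP 4 the lowest, and the groups overlapped (log2 fold change 0.20, SE 0.14, edgeR adjusted p = 0.581).

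X-linked Rpl10, which joins the large subunit late in its assembly, was at 229, 288, 304, 232 and 247 CPM in GFAP 1 to 5 and 301, 253, 342, 285 and 284 CPM in NG2 1 to 5. GFAP 1, GFAP 4 and GFAP 5 were the lowest of the 10 and the other libraries overlapped (log2 fold change 0.17, SE 0.11, edgeR adjusted p = 0.542).

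Rpl37, a zinc-binding protein of the large subunit, was at 90.7, 101, 108, 91.1 and 104 CPM in GFAP 1 to 5 and 103, 84.4, 137, 104 and 125 CPM in NG2 1 to 5. NG2 2 was the lowest of the 10 and NG2 3 the highest (log2 fold change 0.16, SE 0.12, edgeR adjusted p = 0.622).

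The largest negative estimates belonged to Rps27, Rpl7a, Rps12, Rps27a and Rpl24, and their intervals all included 0. Rps27, a zinc finger protein of the small subunit, was at 70.2, 100.2, 92.4, 78.1 and 90.5 CPM in GFAP 1 to 5 and 47.6, 53.4, 99.0, 81.6 and 94.5 CPM in NG2 1 to 5. NG2 1 and NG2 2 stood below all other libraries and the remaining 3 NG2 libraries lay within the range of the GFAP group (log2 fold change -0.20, SE 0.19, edgeR adjusted p = 0.698).

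A protein-coding copy of Rps27 lies outside the naming rule and had an estimate of the opposite sign. This copy, Rps27rt, was at 21.3, 24.6, 48.7, 22.8 and 22.9 CPM in GFAP 1 to 5 and at 53.6, 29.3, 48.4, 29.4 and 39.0 CPM in NG2 1 to 5 (log2 fold change 0.51, SE 0.24, edgeR adjusted p = 0.389). NG2 1, among the lowest for Rps27, was the highest for the copy. The sum of both rows, taken after their values were seen, was 114 ± 19.6 CPM in GFAP and 115 ± 25.7 CPM in NG2 libraries (SD, n = 5 each). Reads of the gene and its copy may not be separable, so both estimates are uncertain.

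Rpl7a of the large subunit was at 45.3, 57.0, 68.8, 38.6 and 31.1 CPM in GFAP 1 to 5 and 31.2, 32.1, 72.4, 52.4 and 29.7 CPM in NG2 1 to 5. Both groups ranged over a factor of more than 2, with GFAP 5 and NG2 5 among the lowest and GFAP 3 and NG2 3 the highest (log2 fold change -0.14, SE 0.26, edgeR adjusted p = 0.86). Pseudogene rows held 42.9% of the reads of its protein.

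Rps12 was at 17.5, 21.9, 21.2, 19.9 and 21.3 CPM in GFAP 1 to 5 and 17.9, 10.9, 25.9, 19.3 and 19.7 CPM in NG2 1 to 5. NG2 2 was the lowest and NG2 3 the highest of all libraries, with the GFAP group between them (log2 fold change -0.12, SE 0.18, edgeR adjusted p = 0.832). Rps27a, made as a fusion of a small subunit protein to ubiquitin, was at 114, 143, 154, 88.1 and 146 CPM in GFAP 1 to 5 and 131, 75.5, 172, 118 and 108 CPM in NG2 1 to 5. Again NG2 2 was the lowest and NG2 3 the highest (log2 fold change -0.09, SE 0.19, edgeR adjusted p = 0.881). For Rpl24 the interval was the widest of the members named here, -1.05 to 0.87 (log2 fold change -0.09, SE 0.45, edgeR adjusted p = 0.96).

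The remaining named members had estimates that did not pass the threshold. The log2 fold changes were 0.10 for Rplp0, 0.09 for Rplp2 and -0.09 for Rpl13a. Among the paralogues the log2 fold changes were 0.16 for Rpl22, 0.09 for Rpl22l1, 0.06 for Rps27l, -0.06 for Rpl39, 0.07 for Rpl7, -0.07 for Rpl7l1, -0.03 for Rpl3 and 0.07 for X-linked Rps4x. The lowest edgeR adjusted p in this group was 0.529, for Rpl22. Rps4l, which the table lists as a transcribed processed pseudogene and which is therefore no member, was at 47.4 ± 2.65 CPM in GFAP and 57.0 ± 6.91 CPM in NG2 libraries (log2 fold change 0.27, SE 0.10, edgeR adjusted p = 0.313).

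As a share of the whole library the members differed between the groups by less than the spread within them. They took 1.42%, 1.71%, 1.74%, 1.45% and 1.52% of counts in GFAP 1 to 5 and 1.53%, 1.25%, 1.77%, 1.56% and 1.72% in NG2 1 to 5. GFAP libraries averaged 1.57% ± 0.149 and NG2 libraries 1.57% ± 0.202 (SD, n = 5 each). Of summed FPKM they took 2.92% ± 0.230 and 2.86% ± 0.329. The lowest and the highest shares of counts both belonged to the NG2 group.

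The members' levels varied more between libraries than between groups. Each tested member's log2 CPM (prior count 2) was taken relative to that gene's mean over the 10 libraries, and the average over the 80 members gave each library a score. In the GFAP group the scores were -0.18, 0.14, 0.15, -0.15 and -0.03 for replicates 1 to 5. In the NG2 group they were -0.07, -0.28, 0.31, 0.03 and 0.08. The group means were -0.01 ± 0.16 and 0.01 ± 0.22 (SD, n = 5 each), so libraries within a group lay further apart than the groups. The scores depend on the TMM factors, since a lower factor raises the CPM of every gene in a library. These factors ran from 0.985 to 1.03 in GFAP libraries and from 0.927 (NG2 3) to 1.03 (NG2 1) in NG2 libraries. By share of counts NG2 3 (1.77%) was close to GFAP 3 (1.74%). The part of the scaling in the scores was not tested.

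**Figure D3:**
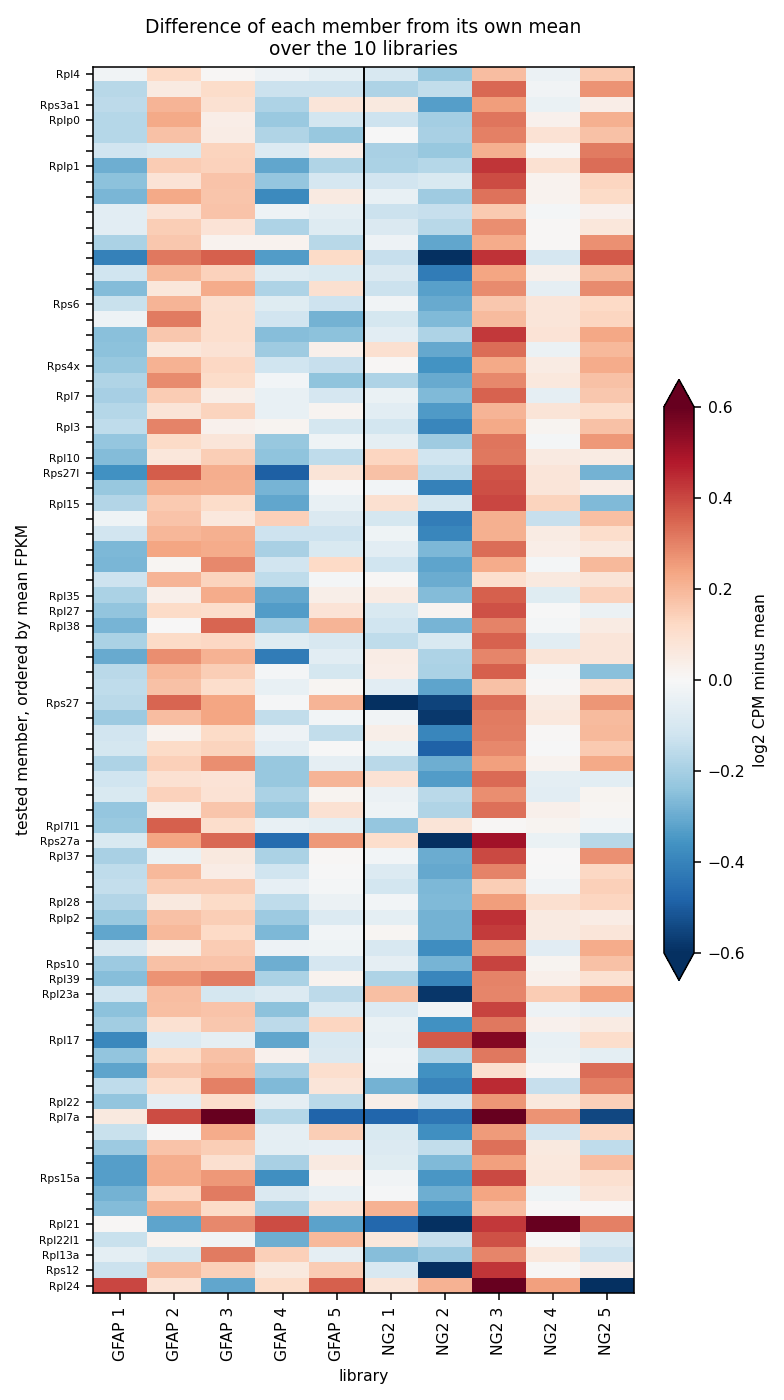
Log2 CPM of each tested member (rows, ordered by mean FPKM, with names for members described in the text) minus its own mean over the 10 libraries (columns); red is above and blue below the mean, and colours are capped at -0.6 and 0.6. NG2 3 is red for all 80 members and NG2 2 is blue for 76, while no block of rows separates the GFAP from the NG2 columns.

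In 6 of the 10 libraries at least 72 of the 80 members lay on the same side of their own mean. In NG2 3 all 80 lay above their own mean, and in NG2 2 it was 76 that lay below. In GFAP 1 it was 77 that lay below, and in GFAP 4 it was 72. GFAP 2 and GFAP 3 had 74 and 76 above. The other libraries were more divided, with 66 above in NG2 5, 61 below in NG2 1, and 50 of 80 below in GFAP 5 and above in NG2 4. NG2 3 was the highest of the 10 libraries for 60 members, and NG2 2 was the lowest for 44.

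The members that stood against the pattern in NG2 2 were of the large subunit, since all 32 small subunit genes were below their mean there. They were Rpl17, with a value in NG2 2 second only to that in NG2 3, Rpl24, Rpl27 and Rpl7l1. Across the 10 libraries, in each of which the members share the sorted group, the depth and the base composition of the library, the mean correlation between pairs of members was 0.70, and 97.8% of the 3160 pairs had r above 0. Without NG2 2 and NG2 3 the mean over the members was 0.58. The mean over all tested genes was 0.005, but these have a lower median level (4.82 against 78.3 FPKM) and are no matched set. These correlations describe the 10 libraries and are given without a test.

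The library differences were also seen with GC content and length taken into account. After a smooth trend on both was removed from each library, the scores were -0.22, 0.14, 0.08, -0.21 and -0.02 in the GFAP group and -0.14, -0.20, 0.30, -0.02 and 0.29 in the NG2 group. NG2 5 moved from 0.08 to 0.29 under this correction, and NG2 2 from -0.28 to -0.20. NG2 2 was then no longer the lowest library, with GFAP 1 and GFAP 4 below it, and NG2 5 came close to NG2 3, which stayed the highest. The members are short, with a median length of 1776 bases against 3827 for all tested genes, and had a median GC content of 50.9% against 49.0%.

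Spread within a group was larger among NG2 than among GFAP libraries for most members. The median coefficient of variation of CPM was 12.7% in GFAP and 16.2% in NG2 libraries, and it was larger in the NG2 group for 67 of 80 members (83.8%). Over all tested genes the medians were 15.6% and 20.2%, and the NG2 group was the more variable for 70.0% of genes.

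Marker genes of the cell types present also varied between these libraries. The 8 radial glia markers were all below their means in both NG2 2 (score -0.66) and NG2 3 (score -0.43), which held the extremes of the ribosomal scores before the correction for GC content and length. In GFAP 2 all 8 were above (0.64, against 0.056 to 0.14 in the other GFAP libraries). Neuron markers scored 0.26 in NG2 2, 0.34 in NG2 3 and -0.46 in GFAP 2. The 6 microglia markers scored 0.31 and -1.66, with 5 of them above their means in NG2 2 and 0 in NG2 3, and had summed levels of 16.3 to 223.6 CPM over the NG2 and 28.0 to 109.6 CPM over the GFAP libraries. Mitochondrially encoded genes were at -0.03 and 0.46. The part of these differences in the ribosomal scores was not tested.

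The other genes of protein synthesis moved with the members in some libraries and not in others. TOP mRNAs that encode no ribosomal protein are known to begin with the same kind of run as printed for Rpl15 and Rps6. These genes, such as the elongation factor Eef1a1 and the RNA-binding protein Hnrnpa1, were on the members' side in NG2 2, where all 17 lay below their mean (score -0.25), in NG2 3, where 15 of 17 lay above (0.19), in GFAP 2, with 16 above (0.14), and in GFAP 1, with 13 below (-0.08). In GFAP 4 and GFAP 3 they were divided, with 9 of 17 below (-0.03) and 10 of 17 above (0.05). Their median log2 fold change was -0.03 with 8 of 17 positive. Eef1a1 was at 1799 ± 125 CPM in GFAP and 1736 ± 201 CPM in NG2 libraries, and Hnrnpa1 at 1129 ± 99.8 CPM in GFAP and 1053 ± 84.8 CPM in NG2 libraries. By edgeR 0 of the 17 passed the threshold, and 1 had an unadjusted p under 0.05, against 0.148% and 12.8% of all tested genes.

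Ribosomal proteins whose symbols fall outside the rule included Rack1, a scaffold on the small subunit, and Fau, which encodes a small subunit protein fused to a ubiquitin-like domain. Of 5 such genes 4 were tested, all 4 were positive and their median was 0.08. Rack1 was at 387 ± 40.4 CPM in GFAP and 397 ± 49.6 CPM in NG2 libraries and Fau at 126 ± 11.1 CPM in GFAP and 131 ± 22.4 CPM in NG2 libraries. All 4 lay below their mean in NG2 2 and above it in NG2 3, as most members did.

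Initiation factors bring the ribosome to the start codon. Their median was 0.04 with 29 of 37 positive, and Eif4g2 was at 1188 ± 122 CPM in GFAP and 1296 ± 168 CPM in NG2 libraries. The helicase Eif4a1 was at 1186 ± 108 CPM in GFAP and 1279 ± 164 CPM in NG2 libraries. In NG2 2 the score of this list was -0.04, with 17 of 37 above their mean, so the low value of the ribosomal proteins there was not seen to the same extent.

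Elongation and release factors had a median of -0.03 with 4 of 10 positive, and scores of -0.18 in NG2 2 and 0.12 in NG2 3. Eif5a, which helps the ribosome through difficult peptide bonds, was at 1127 ± 179 CPM in GFAP and 1205 ± 116 CPM in NG2 libraries. Of these 10 genes, 5 (Eef1a1, Eef2, Eef1g, Eef1b2 and Eef1d) are also among the 17 TOP genes. The TOP list further shares Eif3e, Eif3f, Eif3h, Eif4b and Pabpc1 with the initiation factors and Npm1 with the ribosome biogenesis factors. The scores of these lists are thus not separate measurements.

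The factors that build ribosomes had a median of 0.03 with 20 of 36 positive. The nucleolar proteins Ncl and Npm1 led them, at 441 ± 75.7 CPM in GFAP and 423 ± 41.4 CPM in NG2 libraries and at 420.4 ± 59.0 CPM in GFAP and 405 ± 56.9 CPM in NG2 libraries. Their score was 0.01 in NG2 2 and 0.13 in NG2 3. RNA polymerase I and its factors, which make the ribosomal RNA, had a median of -0.01 with 6 of 15 positive, and scores of 0.03 and 0.04 in those libraries. Ubtf was at 154 ± 6.17 CPM in GFAP and 156 ± 21.2 CPM in NG2 libraries and Rrn3 at 101 ± 5.44 CPM in GFAP and 101 ± 25.6 CPM in NG2 libraries.

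The upstream growth regulators of the mTORC1 and Myc list had a median of 0.04 with 9 of 16 positive. Mycn and Mycl had its highest levels, at 188 ± 11.1 CPM in GFAP and 202 ± 30.7 CPM in NG2 libraries and at 158 ± 15.3 CPM in GFAP and 180.2 ± 32.0 CPM in NG2 libraries. Proteins of the mitochondrial ribosome, a separate machine that translates mitochondrial mRNAs, had a median of 0.10 with 60 of 76 positive. Mrpl28 was at 189 ± 22.0 CPM in GFAP and 205 ± 33.2 CPM in NG2 libraries and Mrpl42 at 138 ± 22.1 CPM in GFAP and 150.0 ± 20.9 CPM in NG2 libraries. They were on the same side as the cytosolic members in NG2 3, with 75 of 76 above their mean (score 0.25), in GFAP 2, with 61 above (0.11), in GFAP 1, with 71 below (-0.16), and in GFAP 4, with 65 below (-0.11). In NG2 2 and GFAP 3 they were divided, with 47 of 76 below (-0.03) and 40 of 76 below (-0.01). By edgeR none of the translation lists named here held a gene past the threshold, against 0.148% of all tested genes. At an unadjusted p under 0.05 they held from 0 to 2 genes each, against 12.8% of all tested genes. It was 2 of 15 for RNA polymerase I, 2 of 16 for mTORC1 and Myc and 1 of 4 outside the rule, near or above that share. The other lists were below it, with 1 of 17 TOP genes, 1 of 37 initiation factors and 0 of 10 elongation and release factors. Biogenesis factors had 0 of 36 and mitochondrial ribosomal proteins 1 of 76.

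**Figure D4:**
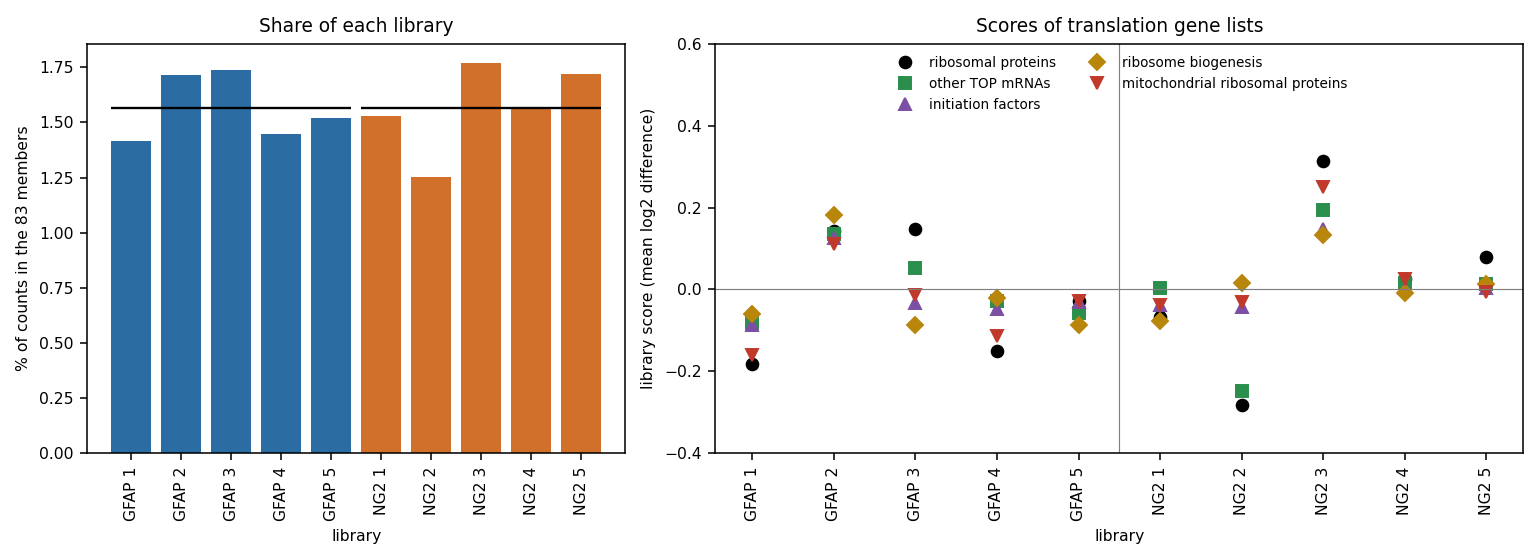
Left, percent of counts in the 83 members in each library, with a line at the mean of each group. Right, library scores (mean log2 difference from the gene means) of the ribosomal proteins and of 4 further translation lists; the ribosomal scores run from -0.28 in NG2 2 to 0.31 in NG2 3, and in NG2 2 the other TOP mRNAs are low beside them while initiation factors, biogenesis factors and mitochondrial ribosomal proteins are near 0.

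Pseudogenes are a known trait of this family, since its short, abundant mRNAs have often been copied back into the genome. By the protein named in the deposited descriptions, 2186 pseudogene rows belonged to 79 of the 83 members, and 952 of them had reads. For the median tested member 10.1% of the reads of its protein lay on pseudogene rows. The share was 85.6% for Rpl24, 79.2% for Rpl17, 66.1% for Rpl21 and 63.5% for Rpl23a. The levels of these 4 genes, with means of 1.42, 31.7, 15.7 and 43.5 FPKM, all lay below the median of the members.

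**Figure D5:**
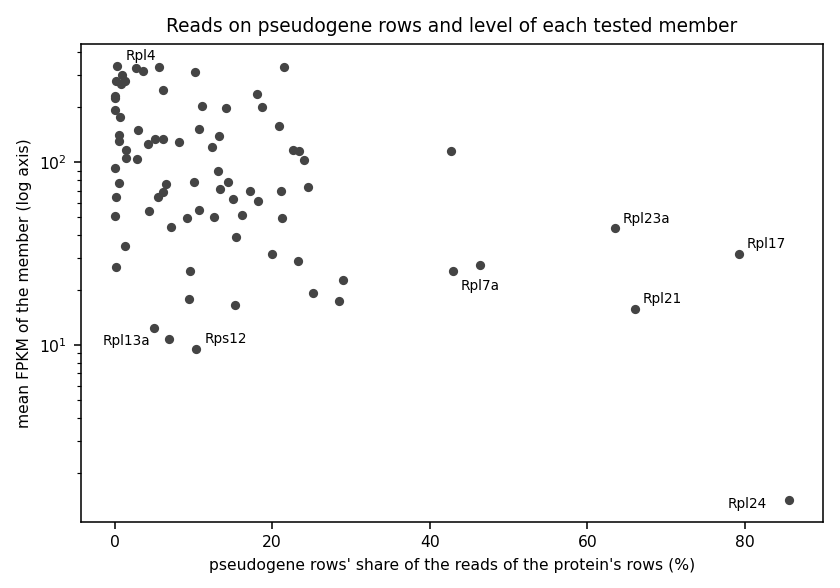
Mean FPKM of each tested member (log axis) against the percent of its protein's reads that lie on pseudogene rows. Rpl24, Rpl17, Rpl21 and Rpl23a lie at shares above 60% and below the median level of 78.3 FPKM, and low levels also occur at small shares, as for Rps12 and Rpl13a.

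Of the pseudogene rows 208 were tested, and by edgeR 0 passed the threshold and 8 had an unadjusted p under 0.05. Over all tested genes these shares were 0.148% and 12.8%. Their median log2 fold change was -0.01, with 100 of 208 positive. In NG2 2 their score was -0.42, lower than that of the members themselves. With the pseudogene reads added to each member, edgeR again called 0 of 80, the median was 0.03 and 51 were positive.

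Small nucleolar RNAs guide the modification of ribosomal RNA, and many of their genes lie inside the members. Of the 80 tested members 30 (37.5%) contained such a row, against 2.88% of the 12930 tested protein-coding genes. Rpl4 contained 5 and Rpl13a contained 4. Apart from small nucleolar RNA rows, 28 members overlapped another gene, among them Rps27a with Clhc1 and Rpl3 with Syngr1, both on the opposite strand. Whether reads were counted by strand is not given in the labels or the processing notes, and values of overlapping members are uncertain to that extent.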

How the data were processed

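Ribosomal protein genes were read from a table of 53801 genes in 10 libraries. The authors deposited whole-number read counts per gene, not normalised, and FPKM; the submitters' processing notes name HISAT2, featureCounts 1.5.0-p3 and GRCm38.p6. RNA was amplified from small inputs with SMARTer chemistry, per the labels' protocols, and without molecular identifiers reads are not independent molecules. Treatment of multi-mapping reads, which bears on genes with near-identical copies, is not given in the sources used here. The authors' deposited table also holds log2 fold changes with p-values and adjusted p-values, and a mean signal for each group, per the file headers, which was not used.

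Counts were tested with edgeR 4.0.16 (R 4.3.3): quasi-likelihood test, TMM scaling, default expression filter, no covariates, Benjamini-Hochberg adjustment over 16187 genes, threshold 0.05. Intervals use the t quantile of that fit. The procedure was tested on simulated data, with changes given to genes drawn from all those tested. It recovered 61 of 100 genes changed by 1 on the log2 scale and 87 of 100 changed by 2, with 5 false calls. Smaller changes were not simulated. Gene overlaps came from the deposited coordinates, GC content from GENCODE M21, promoter windows from RefSeq (GRCm38.p6), and pseudogenes were assigned by the protein named in the deposited description. Named genes are the 5 largest estimates in each direction, the 5 highest and 3 lowest levels, the stalk genes, the paralogue pairs, untested members and, in each other translation list, the 2 highest by CPM; values of some members are not reported here. Radial glia, intermediate progenitor, neuron, microglia and mitochondrially encoded genes are given as lists only. The members and lists were chosen with earlier results of these data known. Alternatives were run with DESeq2 1.42.0 and limma 3.58.1, other scalings and filters, corrections for GC and length, a replicate block, and each library left out.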

Additional observations from a re-analysis of the deposited data

Results flagged for a closer look

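The library scores of 23 gene lists, the CPM of 25 genes and 2 shares of counts were examined in each group, 100 sets of 5 libraries in all. In 10 of them, all library scores of lists, the highest or lowest library stood far from the rest, by the gap divided by the range (limit 0.71 for 5 libraries). Chance gives about 5% of such sets when they are independent. These sets reuse the same libraries and some lists share genes, so the 10 cannot be weighed against that share. Among the cytosolic ribosomal proteins themselves no library stood out by this measure. For initiation factors, GFAP 2 was at 0.13 with the other GFAP libraries at -0.087 to -0.03, and NG2 3 was at 0.15 with the others at -0.043 to 0.0031. For elongation and release factors, NG2 2 was at -0.18 with the others at 0.04 to 0.12. Ribosome biogenesis factors were at 0.18 in GFAP 2, against -0.088 to -0.022 in the rest of that group. The RNA polymerase I list was at 0.044 in GFAP 2, against -0.00047 to 0.0091. Mitochondrial ribosomal proteins were at 0.25 in NG2 3, against -0.038 to 0.027. The pseudogene rows of the ribosomal proteins were at -0.42 in NG2 2, against -0.025 to 0.13. GFAP 2, which stands apart in 3 of these lists, also did so in markers of cell types: radial glia markers were at 0.64 there, against 0.056 to 0.14 in the other GFAP libraries, and neuron markers at -0.46, against -0.096 to -0.011. The part of these marker differences in the other scores was not tested. Erythroid markers were at -0.52 in NG2 5, against 0.13 to 0.39.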

How the results depend on the processing

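Under every alternative run, 0 members passed the threshold in either direction, and the lowest adjusted p of a member ranged from 0.0928 (voom with sample weights) to 0.534 (pseudogene reads added, an alternative chosen after seeing the data). Members with an unadjusted p under 0.05 numbered from 0 to 8, the 8 with voom, under which 1441 genes of the table passed against 24 by edgeR, 343 by DESeq2 and 117 without NG2 5. The median log2 fold change ranged from -0.035 (without NG2 3) to 0.105 (without NG2 2), with the scalings between -0.018 and 0.035, and was 0.103 with the GC and length correction, which moved the median of all tested genes to 0.075. The share difference ranged from -0.0512 to 0.0778 percentage points on leaving out each library.

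Same-numbered libraries showed little common deviation (r = -0.021 to 0.083), though GFAP 2 and NG2 2 were each other's closest partner in the other group. Such correlations cannot show whether same-numbered samples share a litter or a sort. With the replicate block 0 members passed and the median was 0.0176, and over all genes 1 passed. With the block and the GC and length correction the median was 0.094.

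Of the named members 12 changed sign under some setting, none past the threshold in any. On leaving out each library, estimates ranged from -0.4 to 0.018 for Rpl7a, -0.254 to 0.027 for Rps12, -0.247 to 0.039 for Rps27a, -0.298 to 0.179 for Rpl24, -0.041 to 0.058 for Rpl4, -0.066 to 0.073 for Rps3a1, -0.02 to 0.164 for Rplp2, -0.038 to 0.169 for Rps27l, -0.144 to 0.023 for Rpl39, -0.008 to 0.146 for Rpl7, -0.124 to 0.028 for Rpl7l1 and -0.082 to 0.062 for Rpl3. Rpl4 was at -0.011 with upper quartile scaling, -0.043 with library size only, -0.012 with the strict filter or protein-coding genes only, -0.019 with voom and -0.006 with the replicate block. Rps3a1 was at 0.006 with DESeq2 size factors, 0.008 by DESeq2, 0.004 on FPKM, 0.024 with voom, 0.092 with the GC and length correction and 0.094 with the block added to it. With voom, Rpl7a was at 0.113, Rpl24 at 0.059, Rpl39 at 0.038, Rpl7l1 at 0.036 and Rpl3 at 0.029. With the GC and length correction and then with the block added, Rpl39 was at 0.031 and 0.028, Rpl7l1 at 0.025 and 0.026, and Rpl3 at 0.041 and 0.02. The median of the initiation factors moved to 0.146 with the GC and length correction, and that of the RNA polymerase I list to 0.029 with it and -0.059 with library size only. The cause of these changes was not tested. Counting depth limits Rpl24 most, with 221 reads over the 10 libraries.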
